A study of Mus musculus with 6 samples.

Results

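The glucocorticoid receptor gene Nr3c1 and 9 genes known as its targets or as part of its pathway were followed in 3 CT26 cell populations. The 10 genes were Nr3c1, Anxa1, Tsc22d3, Fkbp5, Per1, Sgk1, Klf9, Dusp1, Zfp36 and Hsd11b1, taken by symbol from the 53801 genes of the expression tables, in which each symbol matched 1 Ensembl identifier. They were not chosen by a threshold on measured values, but Nr3c1 and Anxa1 are among the genes that the study displayed for these same libraries, so their direction here is not independent evidence. The 10 genes and the gene lists used below were also chosen with earlier results of these data known. Shares of them set against all genes are therefore descriptive only. Nr3c1, Anxa1 and Fkbp5 were higher in line B04 than in the parental line, by 43.4%, 41.9% and 38.7% respectively. Sgk1 was also higher there, by 26.5%, but passed the threshold under only 3 of 16 alternative fits. Dusp1 lay higher by 29.4% without passing it in the main fit. The other targets did not move as a block. By normalised count Per1 and Zfp36 lay at their lowest in B04, where Nr3c1 was at its highest, but neither difference from the parental line passed the threshold, and by TPM, a level per unit of transcript length, Per1 was lowest in the parental line.

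CT26 is a colon carcinoma line of BALB/c mice. RNA was sequenced from a parental CT26 population selected in vivo and from B04 and B64, which are each 1 line grown from a single cell and resistant to immune checkpoint blockade, with 2 libraries (A and B) per line. All 3 lines had passed through growth in mice, and the cells were cultured in RPMI medium with serum. For the RNA cultures the methods describe no treatment and no added glucocorticoid in any group. In its discussion the paper states that the clones were isolated after checkpoint blockade. It adds that the expression changes of B04 and B64 might have existed before that treatment or been induced by it. The part of that exposure in the values below was not tested. The sample titles call the samples tumours, whereas the methods describe RNA from cultured lines, and nothing in either says that libraries A and B came from separate cultures. The p-values therefore measure only the spread between these libraries.

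The glucocorticoid receptor is a nuclear receptor that waits in the cytoplasm in a complex with heat shock protein 90 and its co-chaperones. Once it has bound cortisol or corticosterone it enters the nucleus, where it activates genes through DNA elements made of inverted hexamers and represses inflammatory genes, in part by acting on the factors AP-1 and NF-kappaB. Several of its targets carry out or limit its action, since TSC22D3 and DUSP1 dampen inflammatory signalling and FKBP5 lowers the affinity of the receptor for hormone. Serum, MAP kinase signalling, osmotic stress and the circadian clock also act on several of these targets.

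Because the receptor acts through DNA elements, the 250 bases before annotated start sites were read from the RefSeq promoter windows (GRCm38.p6) of the 9 targets. The windows below are a selection, shown because they hold most of the matches or, for Anxa1 and Fkbp5, because these targets rose in B04. Capitals mark matches, on either strand, to the receptor's core hexamer AGAACA, to its full palindrome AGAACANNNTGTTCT, to the clock element CACGTG (an E-box) and to the cAMP element core TGACGT. The last 2 motifs were added after the windows had been read.
Sgk1, chr10:21993640-21993889, plus strand: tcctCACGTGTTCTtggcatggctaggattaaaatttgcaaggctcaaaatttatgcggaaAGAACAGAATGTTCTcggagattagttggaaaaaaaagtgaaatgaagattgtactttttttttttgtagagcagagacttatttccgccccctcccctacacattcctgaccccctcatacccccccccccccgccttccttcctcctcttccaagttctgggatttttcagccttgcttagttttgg
Dusp1, chr17:26508473-26508722, minus strand: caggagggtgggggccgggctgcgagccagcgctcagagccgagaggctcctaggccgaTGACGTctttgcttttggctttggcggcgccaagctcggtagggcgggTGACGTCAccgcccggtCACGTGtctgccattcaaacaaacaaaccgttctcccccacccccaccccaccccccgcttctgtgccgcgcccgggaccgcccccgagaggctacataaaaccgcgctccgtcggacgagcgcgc
Per1, chr11:69098699-69098948, plus strand: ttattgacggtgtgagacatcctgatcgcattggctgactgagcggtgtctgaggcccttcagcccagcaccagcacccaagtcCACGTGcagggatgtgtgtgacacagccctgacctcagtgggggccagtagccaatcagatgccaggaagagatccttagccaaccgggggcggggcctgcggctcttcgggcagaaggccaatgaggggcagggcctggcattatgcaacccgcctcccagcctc
Fkbp5, chr17:28486150-28486399, minus strand: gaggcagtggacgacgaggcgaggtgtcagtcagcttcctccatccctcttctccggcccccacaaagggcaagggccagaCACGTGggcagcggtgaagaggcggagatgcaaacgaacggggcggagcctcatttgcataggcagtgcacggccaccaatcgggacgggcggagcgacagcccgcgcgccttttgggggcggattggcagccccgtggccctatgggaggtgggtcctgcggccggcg
Anxa1, chr19:20390672-20390921, minus strand: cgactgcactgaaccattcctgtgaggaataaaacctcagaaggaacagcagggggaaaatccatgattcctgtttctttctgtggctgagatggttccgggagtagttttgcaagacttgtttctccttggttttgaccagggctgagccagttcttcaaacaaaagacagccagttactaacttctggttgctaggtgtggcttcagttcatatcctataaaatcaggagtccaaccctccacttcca
The Sgk1 window held the full palindrome, whose first base lay 189 bases before the start site. Of all 32851 windows of 300 bases, 3 held that palindrome (0.00913%), and the core hexamer was in 19% of windows. The core hexamer was also in a Tsc22d3 window, in 2 other Sgk1 windows and, near the 5′ end of the printed Sgk1 stretch, in reverse orientation over the last bases of an E-box. The E-box was found in windows of Fkbp5, Per1, Sgk1 and Dusp1 (7.15% of all windows), and the cAMP core in windows of Per1, Klf9 and Dusp1 (7.51%). In Dusp1 that core occurred 3 times, with overlapping matches on opposite strands in the palindrome at 143 bases before the start. Neither Anxa1 nor Fkbp5 had the core hexamer in its window. A match only says that these letters stand there, and receptor sites far from start sites were not searched.

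The 6 libraries held between 19409204 and 23472012 expected counts, that is, read counts that RSEM estimates per gene. Normalised counts below are these counts divided by a DESeq2 size factor per library, and a gene was called at a DESeq2 adjusted p under 0.05. Fragment length, read as RSEM length minus effective length, was 271.8 to 277.3 bases in both parental libraries and B04 A and 220.8 to 246.2 bases in B04 B and both B64 libraries, so it cannot be told apart from the line between parental and B64. Of the colon epithelium markers, Epcam and Cdh1 stayed at or under 0.06 TPM and Vil1 was at 0, whereas Krt18 and Krt20 reached 22.4 and 25.2 TPM and were called higher in B64 (list sum 45.7 and 48.0 TPM in B64 against 22.4 to 25.4 TPM elsewhere). The fibroblast list summed to 329 to 367 TPM across libraries, nearly all of it Col1a2, with Lum at 0. All 4 of its tested genes were called in B04, with Col1a2 (-0.24), Dcn and Pdgfra lower and Pdgfrb (0.50) higher, and the part of these markers in the results below was not tested. Of the leukocyte markers Cd68 alone was abundant and was higher in B64 (list sum 40.2 and 36.6 TPM in B64 against 10.6 to 12.2 TPM elsewhere), with Cd3e at 0 and Ptprc at or under 0.01 TPM. Cd79a, at or under 0.55 TPM, was called lower in B64 than in the parental line. In bulk RNA a smaller number of expressing cells and less RNA per cell cannot be told apart.

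The receptor gene came first. Nr3c1 (ENSMUSG00000024431, chromosome 18, 39410545 to 39519421, minus strand, coordinates here from GENCODE M21 on GRCm38) had normalised counts of 2586 and 2366 in parental A and B, 3637 and 3463 in B04 A and B, and 2896 and 2829 in B64 A and B. Both B04 libraries lay above both B64 libraries, which lay above both parental ones, and no groups overlapped. The rise in B04 was a log2 fold change of 0.52 (SE 0.07, 95% interval 0.38 to 0.66, DESeq2 adjusted p = 6.81e-11), and it was called under all 16 alternatives, with values from 0.45 to 0.63. For B64 against the parental line it was 0.21 (SE 0.07, adjusted p = 0.0337), and B64 was lower than B04 by a log2 difference of -0.31 (SE 0.07, adjusted p = 0.000242). That last call ended when the fragment-length class was blocked (-0.27), a fit in which B04 B alone stands for B04 in this comparison. It also ended with limma on TPM (adjusted p = 0.0533 and 0.0551 at pseudocounts of 1 and 0.1).
The smaller B64 difference was close to the threshold. It was called under 6 of 16 alternatives, with adjusted p-values from 0.0213 to 0.598, and leaving out any library other than parental A ended the call (adjusted p = 0.409 without parental B, 0.334 without B64 A, 0.199 without B64 B, 0.0723 without B04 A and 0.075 without B04 B). In TPM, Nr3c1 was at 31.3 and 27.1 in parental A and B, 45.6 and 44.8 in B04 and 37.0 and 35.8 in B64.

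**Figure D1:**
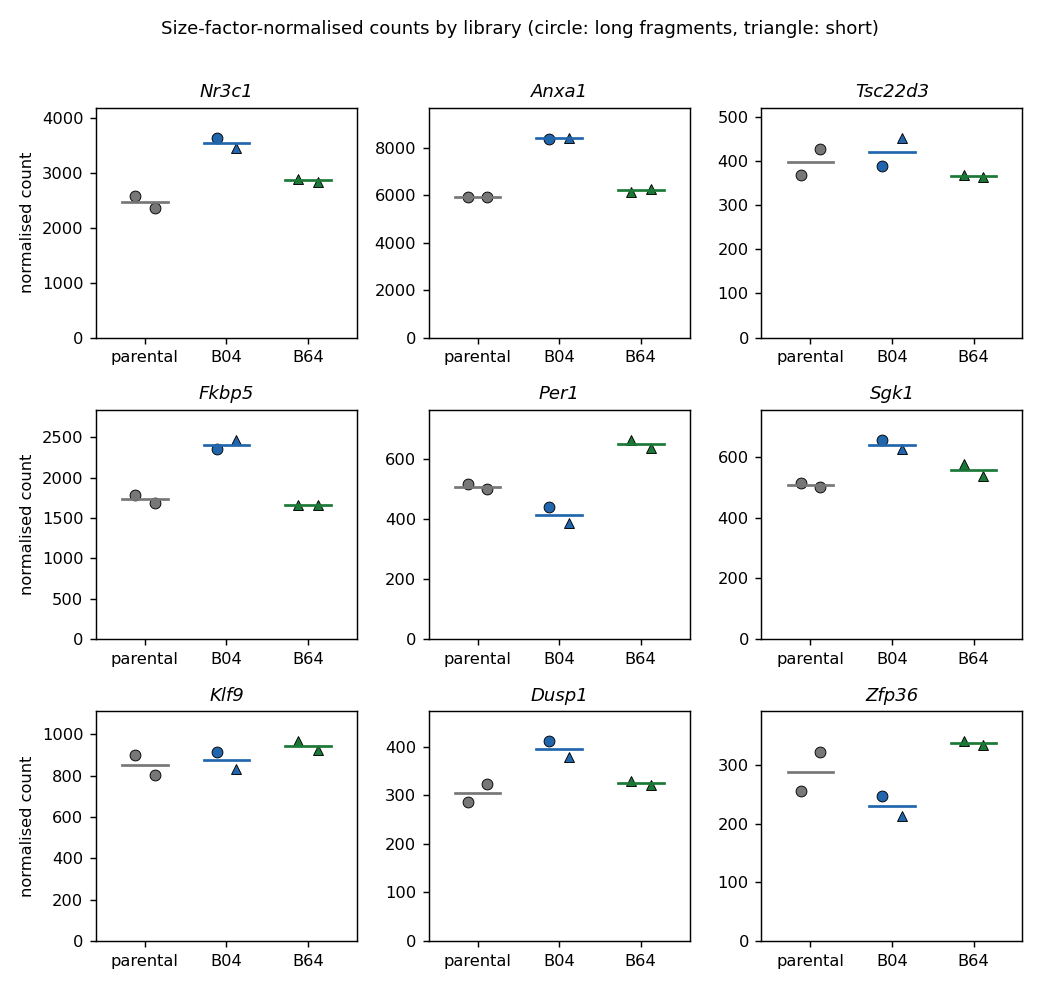
Size-factor-normalised counts (vertical axes, starting at 0) of Nr3c1 and its 8 expressed targets in the 3 lines. Each point is 1 library, circles for long and triangles for short fragments, and bars are means of 2 libraries. The means of Nr3c1, Anxa1, Fkbp5, Sgk1, Dusp1 and Tsc22d3 stand highest in B04, while those of Per1 and Zfp36 stand lowest there.

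Among the targets, 3 of 8 with any counts were called in B04, all higher, and with Nr3c1 this made 4 of 9 tested genes against 24.1% of all genes tested (11.2% called higher and 12.9% called lower). The median log2 fold change of the 9 genes was 0.34, and that of all genes tested was 0.0. Anxa1 (chromosome 19, 20373428 to 20390944), which encodes annexin A1, a phospholipid-binding protein through which glucocorticoids restrain inflammation, had 5914 and 5908 normalised counts in parental A and B, 8370 and 8405 in B04 and 6122 and 6270 in B64. The B04 libraries stood apart from the other 4, which differed little among themselves. Its log2 fold change was 0.50 in B04 (SE 0.05, DESeq2 adjusted p = 3e-18) and 0.07 in B64 (SE 0.06, adjusted p = 0.493, 95% interval -0.04 to 0.18). In TPM, Anxa1 was the most abundant of the 10 genes, at 212 to 320 across libraries.

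Fkbp5 (chromosome 17, 28399094 to 28517527), the co-chaperone that limits hormone binding, had 1790 and 1684 normalised counts in parental A and B, 2349 and 2470 in B04 and 1663 and 1664 in B64. It too was high in the B04 libraries alone, and the B64 libraries lay just under the parental ones. Log2 fold changes were 0.47 in B04 (SE 0.08, DESeq2 adjusted p = 9.95e-08) and -0.06 in B64 (SE 0.08, adjusted p = 0.725), with the latter at 0.04 on log2(TPM + 1) values. Fkbp5 was called in B04 under all 16 alternatives, as was Anxa1. Within the long-fragment libraries B04 A exceeded the parental mean by 0.44 for Fkbp5, 0.50 for Anxa1 and 0.55 for Nr3c1 on the log2 scale, with no test. The fit with fragment-length class as a block also rests on B04 A alone here, so these values are no further check on it.

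Sgk1 (chromosome 10, 21882184 to 21999903), a kinase that acts on ion channels and cell survival, had 513 and 500 normalised counts in parental A and B, 657 and 625 in B04 and 578 and 537 in B64. The groups did not overlap and stood in the same order as for Nr3c1. The log2 fold change in B04 was 0.34 (SE 0.13, DESeq2 adjusted p = 0.0385), but the call held under 3 of 16 alternatives. Leaving out any 1 library ended it, with adjusted p from 0.0905 to 0.32. The call held with edgeR (adjusted p = 0.00504).

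Dusp1 (chromosome 17, 26505590 to 26562128), a phosphatase that switches off MAP kinases, had 287 and 324 normalised counts in parental A and B, 411 and 379 in B04 and 330 and 321 in B64. Both B04 values lay above the other 4, while parental and B64 values overlapped. With a log2 fold change of 0.37 in B04 (SE 0.16, 95% interval 0.05 to 0.69) it did not pass the DESeq2 threshold (adjusted p = 0.0865). It was called under 3 of 16 alternatives. These were edgeR (adjusted p = 0.013) and limma on TPM (adjusted p = 0.0264 and 0.0258 at pseudocounts of 1 and 0.1). In B64 the value was 0.09 (SE 0.17, adjusted p = 0.817).

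Tsc22d3 (chromosome X, 140539528 to 140600659) encodes GILZ, a leucine zipper protein that binds NF-kappaB and AP-1 and is among the most widely used readouts of the receptor. It had 370 and 427 normalised counts in parental A and B, 389 and 453 in B04 and 370 and 364 in B64. The parental and B04 values interleaved. Its log2 fold change was 0.08 in B04 (95% interval -0.24 to 0.39, DESeq2 adjusted p = 0.82). It turned to -0.04 once the fragment-length class was blocked, so neither direction was resolved. The interval lay below the Nr3c1 estimate of 0.52 but overlapped the Nr3c1 interval of 0.38 to 0.66. Whether Tsc22d3 rose less than Nr3c1 was not tested.

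Klf9 (chromosome 19, 23141226 to 23168134), a zinc finger transcription factor, had 901 and 805 normalised counts in parental A and B, 913 and 834 in B04 and 966 and 924 in B64. The line means differed slightly less than the libraries within the parental line did, but both B64 values lay above those of the other lines. The log2 fold change was 0.03 in B04 (95% interval -0.19 to 0.26, DESeq2 adjusted p = 0.891, and -0.05 without parental B) and 0.15 in B64 (adjusted p = 0.455).

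Per1 and Zfp36 ran the other way. Per1 (chromosome 11, 69095217 to 69109960), a repressor in the circadian clock that glucocorticoids induce, had 518 and 500 normalised counts in parental A and B, 440 and 387 in B04 and 666 and 638 in B64. B04 was lowest and B64 highest, without overlap. Neither difference from the parental line passed the DESeq2 threshold, at a log2 fold change of -0.30 in B04 (SE 0.14, adjusted p = 0.104) and 0.36 in B64 (SE 0.14, adjusted p = 0.0525), but B64 exceeded B04 by 0.66 (SE 0.14, adjusted p = 2.34e-05). The edgeR test called both differences from the parental line (adjusted p = 0.0204 and 0.00949).
Zfp36 (chromosome 7, 28376784 to 28380253) encodes tristetraprolin, which speeds the decay of inflammatory mRNAs. Its normalised counts were 256 and 322 in parental A and B, 248 and 213 in B04 and 341 and 335 in B64, so that the parental libraries spanned a 1.26-fold range that reached close to both clones. B64 exceeded B04 by a log2 difference of 0.55 (SE 0.19, DESeq2 adjusted p = 0.0191), a call that ended without either library of those lines (adjusted p = 0.0665 without B04 A, 0.261 without B04 B, 0.191 without B64 A and 0.162 without B64 B). Against the parental line the values were -0.32 in B04 (adjusted p = 0.235) and 0.23 in B64 (adjusted p = 0.503).

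**Figure D2:**
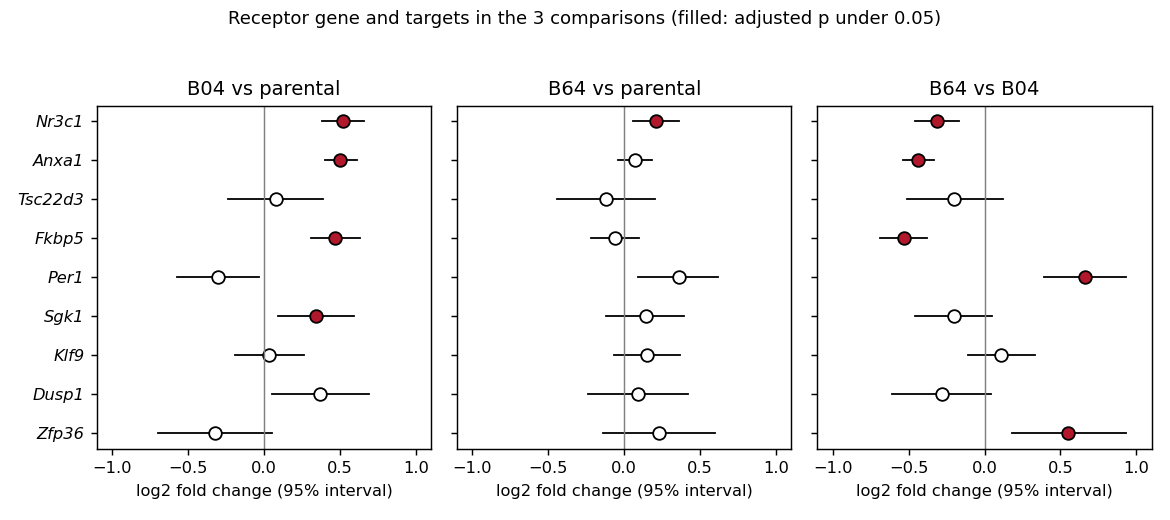
Log2 fold changes (horizontal axes) of Nr3c1 and its 8 expressed targets in the 3 comparisons, with 95% intervals from DESeq2. Filled points had an adjusted p under 0.05, which was so for 4 genes in B04 against parental, 1 in B64 against parental and 5 in B64 against B04.

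The direction for Per1 in B04 depended on the measure. In TPM, Per1 was at 8.02 and 5.81 in parental A and B, 8.54 and 7.77 in B04 and 10.4 and 11.4 in B64, so B04 was no longer the lowest line. The gene length that RSEM used for Per1, an average over the transcripts it assigned reads to, was 3612 and 4535 bases in parental A and B, 2987 and 2919 in B04 and 3628 and 3150 in B64. That of Nr3c1 stayed between 4346 and 4590 bases. With effective lengths as an offset the log2 fold change of Per1 in B04 was 0.17 (DESeq2 adjusted p = 0.607), and the difference between B64 and B04 no longer passed the threshold (0.45, adjusted p = 0.0699). Whether Per1 transcripts themselves differed in length was not tested.

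**Figure D3:**
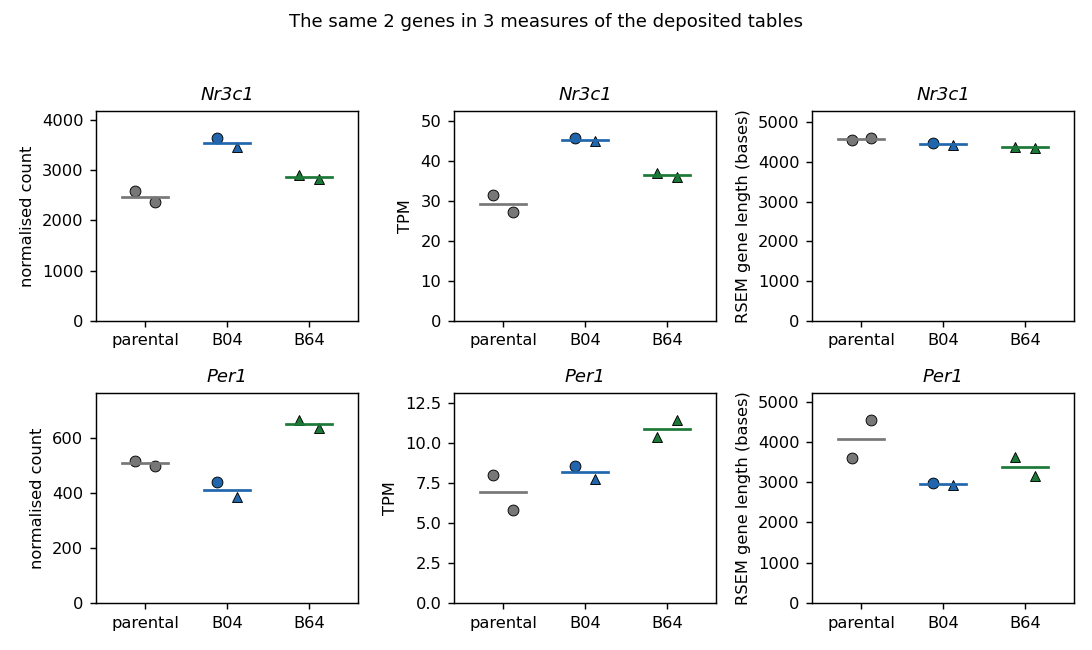
Normalised count, TPM and RSEM gene length in bases (vertical axes from 0) of Nr3c1 and Per1 by line. Points are libraries, circles for long and triangles for short fragments, and bars are means of 2 libraries. Nr3c1 keeps its order in counts and TPM, whereas Per1 is lowest in B04 by count and lowest in the parental line by TPM.

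Hsd11b1 (chromosome 1, 193221634 to 193264075), whose enzyme regenerates active corticosterone inside cells, had 0 counts in all 6 libraries. A count of 0 allows a level of up to 0.128 to 0.155 CPM (counts scaled to the library total), depending on the library, for counting error alone. Hsd11b2, whose enzyme inactivates the hormone, had 3 counts in B04 B and 0 in the other libraries, and Nr3c2, the mineralocorticoid receptor that also binds corticosterone and also acts on Sgk1, had at most 1 count per library. The progesterone receptor gene Pgr was at 0.

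The 9 targets were next set against the receptor by the order of their line means. Nr3c1 rose from parental to B64 to B04, and Anxa1, Sgk1 and Dusp1 had the same order, which was 3 of the 8 targets with any counts, while 17.3% of 11996 genes with a mean normalised count of at least 10 had it. For Fkbp5 and Tsc22d3 B04 was also highest, with B64 lowest. Per1 and Zfp36 had the parental line in the middle and B04 lowest, Klf9 had B64 highest and parental lowest, and Hsd11b1 had no order. By mean TPM, Fkbp5 joined the 3 targets in the order of Nr3c1, and Per1 ran from 6.91 in the parental line to 8.15 in B04 and 10.9 in B64. Neighbouring lines in these orders overlapped for Tsc22d3 and Klf9 (parental and B04), for Dusp1 (parental and B64) and, with parental A and B64 A both at 370, for Tsc22d3 in parental and B64.
Among the 5 genes whose centred log2 pattern over the 6 libraries was closest to Nr3c1, of 9877 with a mean count of at least 100, were Ccpg1, Sh3bp5, Pdpr and Lmo7, at Euclidean distances of 0.064 to 0.098. Of the targets, Anxa1 ranked 102, Sgk1 118, Dusp1 325 and Fkbp5 560 by that distance. Klf9 ranked 3132, Tsc22d3 3592, Zfp36 9064 and Per1 9085. The distance rests on 2 libraries per line and describes likeness only.

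B64 was compared with the parental line and with B04 on the same 9 tested genes. Against the parental line 1 of 9 was called, Nr3c1, beside 16.3% of all genes (8.87% higher and 7.45% lower). The median of the 9 was 0.14, against 0.0 over all genes. These comparisons share the parental libraries, so similar values in them are not separate evidence. In the direct comparison 5 of 9 were called against 24.3% of all genes, with Per1 and Zfp36 higher in B64 (13.1% of all genes were higher) and Anxa1, Fkbp5 and Nr3c1 lower (11.1% were lower). The differences were -0.44 for Anxa1 (DESeq2 adjusted p = 7.97e-14) and -0.53 for Fkbp5 (adjusted p = 1.19e-09). Within the short-fragment libraries the B64 mean differed from B04 B by -0.27 for Nr3c1, -0.44 for Anxa1, -0.57 for Fkbp5, 0.75 for Per1 and 0.67 for Zfp36, with no test.

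**Figure D4:**
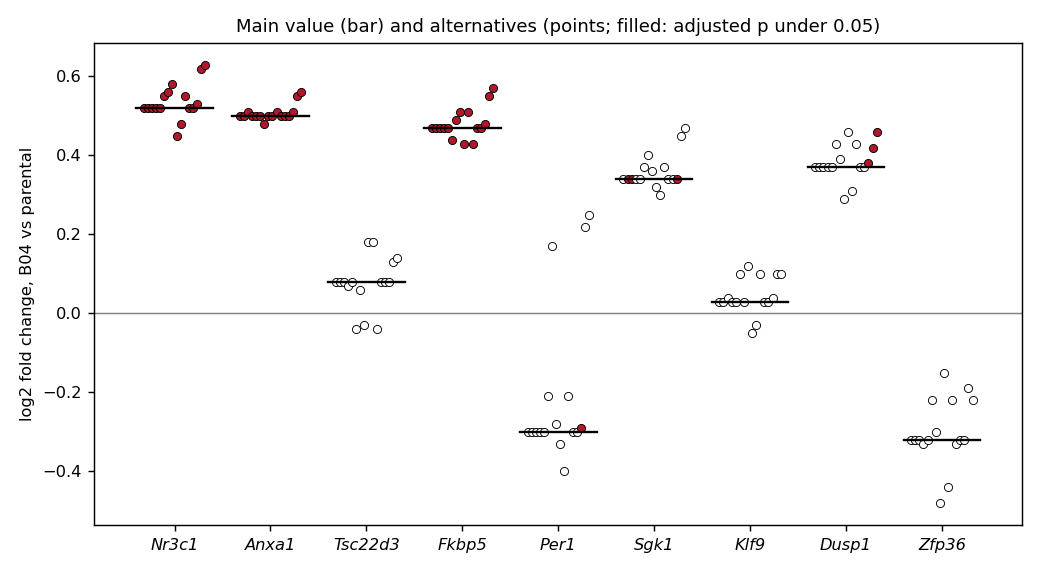
Log2 fold change in B04 against parental (vertical axis) of Nr3c1 and its 8 expressed targets under the main setting (bar) and 16 alternatives (points, filled where the adjusted p was under 0.05). All points of Nr3c1, Anxa1 and Fkbp5 are filled and lie at 0.43 or higher, while Tsc22d3, Per1 and Klf9 have points on either side of 0.

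Other genes known to be induced by glucocorticoids moved in both directions. Of 25 listed, 19 were tested, and in B04 6 were called higher and 1 lower (36.8% against 24.1% of all genes, median 0.20). Ddit4, a stress-induced inhibitor of mTORC1, had 2027 and 2171 normalised counts in parental A and B, 2571 and 3012 in B04 and 3554 and 3637 in B64, with log2 fold changes of 0.41 in B04 (DESeq2 adjusted p = 1.76e-05) and 0.78 in B64 (adjusted p = 5.12e-18). Ddit4 was thus highest in B64 and not where Nr3c1 was highest. Errfi1, an inhibitor of the EGF receptor, fell in both clones, by 1.32 on the log2 scale in B04 and by 0.49 in B64. The Errfi1 call in B64 was lost when the fragment-length class was blocked.
In B64 5 were called higher and 1 lower (31.6% against 16.3% of all genes, median 0.10), and against B04 4 were called higher and 2 lower in B64 (31.6% against 24.3%, median 0.14). Lcn2, a secreted siderophore binder, was higher by 0.53 in B04 and by 0.86 in B64. Mt1, a metal-binding metallothionein, was higher by 0.36 in B64 (adjusted p = 1.55e-09) and at -0.12 in B04 (adjusted p = 0.101). Its call in B64 was lost when the fragment-length class was blocked, with the length offset and on TPM. The count in B04 was 3 without B04 A and 4 when the fragment-length class was blocked.

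Of 14 inflammatory genes that the receptor is known to repress, 8 had enough counts to be tested. In B04 the 3 genes called, Ptgs2, Il11 and Mmp13, were all lower (37.5% called against 24.1% of all genes, median -0.50), while Cxcl1, Nos2 and Icam1 were at 1.20, 1.25 and 1.21 without a call. Some of these genes had few counts. Mmp13 had 29 and 15 in parental A and B and 2 and 3 in B04 A and B, and Icam1 had at most 12 in any library. Ptgs2, which encodes cyclooxygenase 2, had 9013 and 8490 normalised counts in parental A and B, 5593 and 5058 in B04 and 12751 and 12281 in B64, lowest in B04 and highest in B64 without overlap. It fell by 0.72 in B04 (SE 0.06, DESeq2 adjusted p = 5.41e-27), was higher by 0.52 in B64 (adjusted p = 2.43e-14), and stood 1.23 above B04 in B64 (adjusted p = 1.27e-80). The cytokine gene Il11 fell by 1.25 in B04 (SE 0.37, adjusted p = 0.00473), from 74.4 and 91.7 to 28.3 and 41.7 normalised counts. In B64 1 of 8 was called against the parental line (12.5% against 16.3%, median 0.47), and 3 of 7 were called higher than in B04 (42.9% against 24.3%, median 0.71).

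Serum-induced immediate-early genes were counted because Dusp1, Zfp36, Per1 and Sgk1 also belong to the rapid response to serum. Of 19 tested of 20, 7 were called lower and 3 higher in B04 (52.6% against 24.1% of all genes, median -0.24). In B64 3 were called higher and 2 lower (26.3% against 16.3%, median 0.09), and 8 higher and 3 lower in B64 against B04 (57.9% against 24.3%, median 0.38). Fosl1, a subunit of AP-1, fell by 1.19 in B04 (DESeq2 adjusted p = 1e-44). Klf4, a zinc finger factor, was higher by 0.52 in B04. Cyr61, a matricellular protein gene, was higher by 0.32 in B04 and fell by 0.79 in B64, while Ier3 was higher by 0.61 in B64 (adjusted p = 7.3e-08). Their part in the values of the receptor's targets was not tested.

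Clock genes were counted because Per1 is one of them. Of 14 tested of 15, 2 were called higher and 3 lower in B04 (35.7% against 24.1% of all genes, median -0.10), and the 5 called in B64 were all higher (35.7% against 16.3%, median 0.06). Nr1d1, a heme-binding repressor of the clock, had 646 and 687 normalised counts in parental A and B, 346 and 347 in B04 and 1059 and 1008 in B64, the same order of lines as Per1. It fell by 0.94 in B04 (DESeq2 adjusted p = 2.43e-12) and was higher by 0.63 in B64 (adjusted p = 2.53e-06); its 3′ end overlaps Thra on the opposite strand, and the counting is not stated to use strand. Dbp, an output factor of the clock, was higher in both clones, by 1.06 in B04 and 1.68 in B64. Against B04, 6 of 13 were called higher in B64 (46.2% called against 24.3%, median 0.20), Nr1d1 by 1.58 and Bhlhe41, a repressor, by 0.78. How culture and harvest times compared between libraries is not given in the sources used here.

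**Figure D5:**
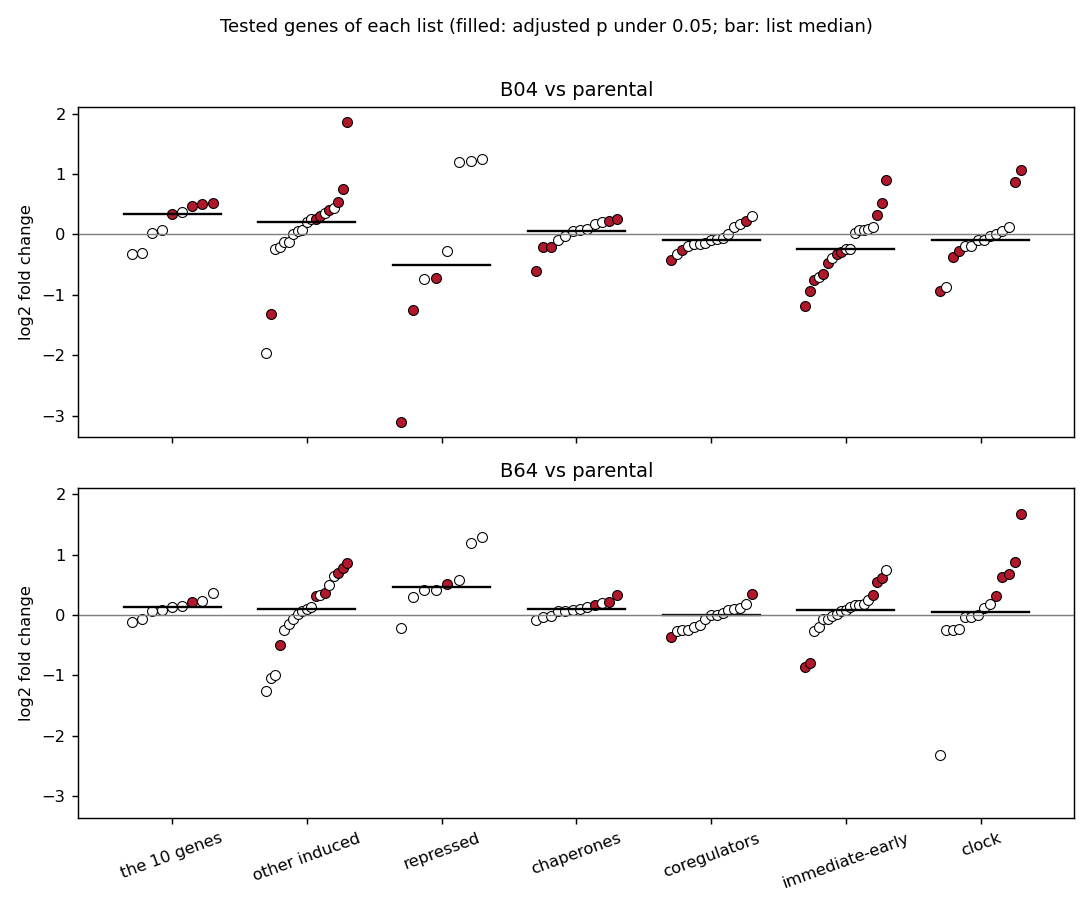
Log2 fold changes (vertical axes) of the tested genes of 7 lists, in B04 (top) and B64 (bottom) against the parental line, with filled points for an adjusted p under 0.05 and bars for list medians. The 4 called genes among the 10 all lie above 0 in B04, while the called repressed and most called immediate-early genes lie below it.

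Changes in the machinery around the receptor stayed between -0.60 and 0.25 in B04 for the genes called. Of 12 chaperones and import factors, 2 were called higher and 3 lower in B04 (41.7% against 24.1% of all genes, median 0.06). In B64 3 were called, all higher (25.0% against 16.3%, median 0.10), and against B04 5 were called higher and 1 lower (50% against 24.3%, median 0.07). Hsp90ab1, the constitutive heat shock protein 90, was higher by 0.25 in B04 (DESeq2 adjusted p = 3.8e-06), while Ppid, the cyclophilin co-chaperone that competes with FKBP5 for its place in the complex, fell by 0.60, from 5005 and 4949 to 3227 and 3351 normalised counts, and stood at 4878 and 4882 in B64. Stip1, which hands clients from HSP70 to HSP90, was 0.38 higher in B64 than in B04. Dnaja1, a co-chaperone of HSP70, was higher by 0.33 in B64, and Fkbp4, which couples the receptor to dynein, by 0.21.
Of 15 coregulators, 1 was called higher and 2 lower in B04 (20%, under the 24.1% of all genes, median -0.10). In B64 1 was called higher and 1 lower (13.3%, under 16.3%, median 0.0), as in B64 against B04 (13.3%, under 24.3%). Tgif1, a corepressor, fell by 0.42 in B04. Ncoa2, a coactivator of nuclear receptors, fell by 0.36 in B64, where the acetyltransferase gene Kat2b was higher by 0.35. Smarca4 and Ep300, which the study's regulator prediction also named, were at -0.06 (adjusted p = 0.587) and 0.18 (adjusted p = 0.144) in B04.

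Of 9 genes that handle steroids or encode related receptors, 5 were tested, 2 of them called higher in B04 (40.0% against 24.1% of all genes, median 0.25) and 3 in B64 (60.0% against 16.3%, median 0.40). Abcb1b and Abcb1a encode P-glycoprotein pumps that export glucocorticoids and many drugs. Abcb1b was higher by 0.42 in B04 (DESeq2 adjusted p = 6.25e-12) and by 0.53 in B64 (adjusted p = 4.77e-19), and Abcb1a by 0.32 and 0.46, although reads shared by these near copies make the split between them uncertain.

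The closest relatives of the targets were counted last. Of 20 listed, 16 were tested, with 2 called higher and 2 lower in B04 (25.0%, near the 24.1% of all genes, median -0.04). In B64 6 were called higher and 1 lower (43.8% against 16.3%, median 0.05), and in B64 against B04 also 6 and 1 (43.8% against 24.3%, median 0.11). Anxa5 fell by 0.58 in B04 (DESeq2 adjusted p = 6.64e-26), where Anxa1 rose, and Anxa2 and Anxa3 were at -0.09 and -0.08 there. Anxa5 was also called lower in B64 than in the parental line, though higher in B64 than in B04. Anxa2 was higher by 0.28 in B64, where Anxa3 was at -0.10. Dusp5, which acts on ERK in the nucleus, fell by 1.75 in B04 (adjusted p = 5.61e-31), from 922 and 1134 to 298 and 315 normalised counts, and Dusp4 was higher by 0.54 in B64. Dusp2 was called in no comparison (adjusted p = 0.203 in B04).
Per3 was higher by 0.86 in B04 and 0.88 in B64, whereas Per2 was at -0.24 in B64 (adjusted p = 0.284). Tsc22d4 was higher by 0.25 in B04 (adjusted p = 0.0385), and Tsc22d1 and Tsc22d2 were at -0.11 and 0.07. Zfp36l1 and Zfp36l2 were higher in B64, by 0.35 and 0.19, and at 0.20 and 0.10 in B04 without a call. Klf13 and Klf16 were called in no comparison, and Sgk2 and Sgk3 were at or under 3 counts.

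Further genes are ones that the study names or displays for these lines, or lists among candidate regulators. Tgfb3 had 295 and 291 normalised counts in parental A and B, 1580 and 1503 in B04 and 350 and 418 in B64, the same order of lines as Nr3c1 with a larger spread. Slurp1 had 4.8 and 3.7, then 63.8 and 66.2, then 14.7 and 28.4, also in that order. Tmem176b was higher by 1.09 in B04 and fell by 0.27 in B64 (DESeq2 adjusted p = 0.00368). Esr1 was higher by 0.42 in B04 (adjusted p = 0.0251), Fosl2 by 0.28 in B64 (adjusted p = 0.00749), and Klf5 fell by 0.34 in B04 (adjusted p = 0.000327). The study chose several of these on these samples, so they do not count as independent evidence.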

How the data were processed

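RNA from 6 libraries (parental, B04 and B64, 2 each) was sequenced as paired reads after poly(A) selection. The authors aligned reads to mm10 with STAR and quantified genes with RSEM at default settings, and deposited 1 table per library with expected counts, TPM and RSEM lengths. The annotation release is not given in the sources used here. FPKM values were not used.

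Expected counts were rounded and fitted with DESeq2 (version 1.42.0, R 4.3.3) on all 6 libraries with line as the only term (Wald test, Benjamini-Hochberg adjusted p under 0.05, independent filtering, no shrinkage). Adjusted p-values cover all tested genes, and all p-values for single genes come from DESeq2 unless another tool is named. The 95% intervals are the estimate plus or minus 1.96 SE. Alternatives used edgeR (version 4.0.16), limma (version 3.58.1) on log2(TPM + 1) and log2(TPM + 0.1), TMM factors, low-count filters, blocks, effective-length offsets and single libraries left out. The fragment-length block leaves B04 A alone against the parental line and B04 B alone against B64. A call lost under that block therefore cannot be told apart from lost replication. The main DESeq2 fit and the edgeR fit were also run on simulated counts, with values not reported here. The deposited TPM, scaled by the authors' RSEM run, served levels between genes. Symbols were matched through GENCODE M21 (53620 of 53801 identifiers) and positions come from there.

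Named genes were the 10 members, in each list the 2 called genes with the smallest adjusted p per comparison (mean normalised count at least 10), all relatives of a described target, genes the study names, displays or lists as regulators, and the 5 genes most like Nr3c1. Mmp13 and further values in the text outside this rule were chosen after they were seen. A few genes that the rule names are not reported here. The members and lists were chosen with earlier results of these data known. The floor of 3 counts and the limits on a count of 0 cover counting error only.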

Additional observations from a re-analysis of the deposited data

Results flagged for a closer look

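The clones B64 and B04 differed from each other in 5 of the 10 genes when their libraries were compared directly with DESeq2, which is what singled these out. The log2 difference, B64 minus B04, was -0.31 for Nr3c1, -0.44 for Anxa1 and -0.53 for Fkbp5, so all 3 were lower in B64. It was 0.66 for Per1 and 0.55 for Zfp36, which were higher in B64. Of all genes tested, 24.3% were called in this comparison. Each difference had the same sign in every pair of B64 and B04 libraries. Since the genes were singled out on these same libraries, that agreement is no added support. The causes of these differences were not tested.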

How the results depend on the processing

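Of 432 recomputed log2 fold changes of the 9 expressed genes, 376 kept their direction and side of the threshold, 38 fell below it, 8 passed it and 10 reversed, none of them called in the main fit. The reversed values in B04 against parental were, for Tsc22d3, -0.04 with fragment-length class as a block, -0.03 without parental A and -0.04 without B04 B (range -0.04 to 0.18 with single libraries left out). For Klf9 they were -0.05 without parental B and -0.03 without B04 A (range -0.05 to 0.12). For Per1 they were 0.17 with effective lengths as an offset, 0.22 on log2(TPM + 1) and 0.25 on log2(TPM + 0.1). Fkbp5 in B64 against parental was at 0.04 in both TPM fits.

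The Nr3c1 rise in B64 lost its call at 0.21 without independent filtering and with the 2 groups alone, at 0.28 with the fragment-length block, at 0.31 and 0.32 in the TPM fits, and in the fits without any 1 library other than parental A (values of all 6 such fits 0.14 to 0.27, with the call kept at 0.27 without parental A). Its difference from B04 lost the call at -0.27 with the fragment-length block and at -0.31 in both TPM fits. With DESeq2, 0 of the 9 genes were called in B64 against parental without independent filtering, at an adjusted p under 0.01, with the 2 groups alone, with the fragment-length block and, with limma, in both TPM fits, and 2 had an unadjusted p under 0.05 in the main fit. The count was 2 with a low-count filter, with the length offset and with edgeR, and 0 to 1 with single libraries left out. Against B04, 3 of the genes were called with either the fragment-length block or the length offset and 2 in both TPM fits.

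Among other glucocorticoid-induced genes, 4 were called in B04 with the fragment-length block and in both TPM fits (3 to 7 with single libraries left out), 3 in B64 with that block, and, against B04, 3 with the block and 11 with edgeR (3 to 7 with single libraries left out). The count of targets in the order of Nr3c1 was 3 in each setting but mean TPM, where it was 4.

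In a DESeq2 fit that took the library letter as replicate block, 3 of the 9 were called in B04, 1 in B64 and 4 in B64 against B04, with Sgk1 (adjusted p = 0.09) and Zfp36 (adjusted p = 0.0576) losing their calls. Same-letter deviations correlated at 0.157, 0.161 and -0.049 over 9878 genes for the 3 pairs of lines, so the letters were not taken to pair the libraries. The cause of these changes was not tested. The 95% interval of Dusp1 in B04 spanned 0.05 to 0.69, but intervals were not adjusted for the number of genes tested. The threshold was set on the adjusted p, which for Dusp1 was 0.0865 with DESeq2.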
